A study of Mus musculus with 6 samples.

Results

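The genes examined were 7 interferon regulatory factor (IRF) genes (Irf1, Irf2, Irf3, Irf5, Irf7, Irf8 and Irf9) and Stat2, whose product works with IRF9. They are 8 of the 21911 protein-coding genes of the GENCODE annotation of the mouse genome (GRCm38). The genes were chosen by name. The peaks assigned to them are those that overlap 2.5 kb on either side of any of their transcription start sites (TSS), or the gene body with 20 kb on either side. These windows held 36 of the 39942 regions that the 6 peak lists form when merged, and between 19 and 33 peaks per list.

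IRF proteins are transcription factors that share a DNA-binding domain for GAAA-containing elements. IRF3 and IRF7 are activated by kinases downstream of sensors of foreign or misplaced nucleic acid and switch on the type I interferon genes. Secreted interferon then acts through its receptor and Janus kinases on STAT2, which binds IRF9 in the complex ISGF3 at the interferon-stimulated response element (ISRE). In the retina, microglia are the cells best known for IRF8, while receptors and signalling genes of the pathway are found in most cell types.

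Acetylation of histone H3 at the residue known as K27 (H3K27ac) marks active promoters and enhancers, and was profiled by ChIP-seq in bulk retina. The study used it to ask whether repeated stress alters this mark in young tissue. Mice were wild-type (WT) and 3 months old at the first pressure elevation. In the 4xIOP group the intraocular pressure (IOP) of one eye was raised to 30 mmHg for 1 h on 4 occasions, and the contralateral, untreated eye of such animals was the control. Tissue was taken on day 2 from the last elevation in both groups, and each group has 3 peak lists. The contralateral eye belongs to a treated animal, so the control carries any effect that reaches both eyes. The treatment text of the labels also mentions injection of dasatinib or vehicle, but the label of no sample names either. The labels do not say which retinas came from the same animal, nor that replicates were independent beyond being separate samples, so p-values measure the spread between these lists.

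The labels and the deposited lists were in conflict for 4 of the 6 samples. Control replicates 1 and 2 have lists whose own name is that of the pressure group, and 4xIOP replicates 1 and 2 have lists whose own name is that of the control. Control replicate 3 and 4xIOP replicate 3 have lists named as labelled. The samples stayed in the group of their label, and every direction given here is for the groups as labelled. For the members, values of the 2 lists without this conflict are given as well.

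The lists held 19913 to 36509 peaks in control and 16195 to 20804 in 4xIOP. The lists give no read counts, but the deposited fold and p-value of a peak together return the number of fragments at its summit. The mean background so obtained was 99.6 to 173 fragments per 10 kb in control and 87.4 to 135 in 4xIOP. Of the markers of retinal cell types, 8 or 9 of 10 photoreceptor genes had a marked promoter in each list, against 1 or 2 of 6 for Müller glia and 0 to 2 of 6 for retinal ganglion cells. Lymphocyte and endothelial markers gave 0 or 1 of 7 and of 5, and the 5 markers of retinal pigment epithelium were unmarked in all lists. In bulk tissue, fewer cells of a type and less acetylation per cell cannot be told apart.

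The sequences before the starts of 4 members are shown because they hold the elements through which interferon and inflammatory signals are known to act, and because the peaks lie beside or over them. Sequences are from RefSeq (GRCm38.p6), which has 11 promoter windows for the members, 250 bases before to 50 after a start, with all 8 genes matched. Capitals mark matches on either strand to the core of the ISRE (GAAA, any 2 bases and again GAAA), to the gamma-activated site bound by STAT dimers (GAS, TTCNNNGAA) or to the NF-kB motif. Among all 32851 promoter windows, 3.44% held the ISRE core, 8.30% a GAS and 8.46% an NF-kB match.
Irf1, chr11:53769764-53770013: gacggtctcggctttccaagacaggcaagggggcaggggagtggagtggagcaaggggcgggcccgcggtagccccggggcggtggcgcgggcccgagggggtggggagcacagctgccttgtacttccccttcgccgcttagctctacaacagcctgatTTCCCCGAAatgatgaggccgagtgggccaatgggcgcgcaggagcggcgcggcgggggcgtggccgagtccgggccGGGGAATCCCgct
Irf2, chr8:46739495-46739744: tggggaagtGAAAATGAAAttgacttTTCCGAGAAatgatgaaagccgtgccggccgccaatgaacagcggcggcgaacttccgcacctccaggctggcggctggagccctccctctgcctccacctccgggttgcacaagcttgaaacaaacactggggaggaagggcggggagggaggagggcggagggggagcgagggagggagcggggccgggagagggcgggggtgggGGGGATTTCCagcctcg
Irf8, chr8:120736108-120736357: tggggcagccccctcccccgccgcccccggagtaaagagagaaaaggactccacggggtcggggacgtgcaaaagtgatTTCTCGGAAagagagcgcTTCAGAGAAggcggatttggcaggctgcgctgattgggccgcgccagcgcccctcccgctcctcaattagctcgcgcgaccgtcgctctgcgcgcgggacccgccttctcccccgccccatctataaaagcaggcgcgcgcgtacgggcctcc
Stat2, chr10:128270248-128270497: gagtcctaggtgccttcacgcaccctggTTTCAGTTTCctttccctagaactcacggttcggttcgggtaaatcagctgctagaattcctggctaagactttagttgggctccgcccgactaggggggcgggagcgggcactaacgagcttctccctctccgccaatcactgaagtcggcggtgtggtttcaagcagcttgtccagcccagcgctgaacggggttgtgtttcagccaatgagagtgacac

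In Irf1 a GAS lay at -90 to -82 and an NF-kB match at -13 to -4, counted from the RefSeq start. In Irf2 an ISRE core at -241 to -232 was followed by a GAS at -224 to -216, and an NF-kB match lay at -17 to -8. Irf8 had a pair of GAS matches at -171 to -163 and -153 to -145, and Stat2 an ISRE core on the minus strand at -222 to -213. Over the 11 windows, 2 held an ISRE core, 3 a GAS and 2 an NF-kB match. The windows of Irf3, Irf5, Irf7 and Irf9 held none of these letters. A window with the Sp motif GGGCGG was more frequent, with 8 of 11 member windows against 35.7% of all.

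Set against the peaks, these elements fell on both sides of the acetylated intervals. The Irf2 ISRE core and GAS lay whole under a peak in 4 lists (control replicates 1 to 3 and 4xIOP replicate 2). The Stat2 ISRE core lay whole under a peak in the 3 control lists, and a peak of 4xIOP replicate 2 ended within it. The GAS and NF-kB match of Irf1, the NF-kB match of Irf2 and both GAS of Irf8 lay whole under a peak in 0 lists, with peaks of control replicates 1 and 2 ending on the first bases of the outer Irf8 GAS. For Irf1 these letters are in the gap between the peak upstream of the start and the peak downstream of it.

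**Figure D1:**
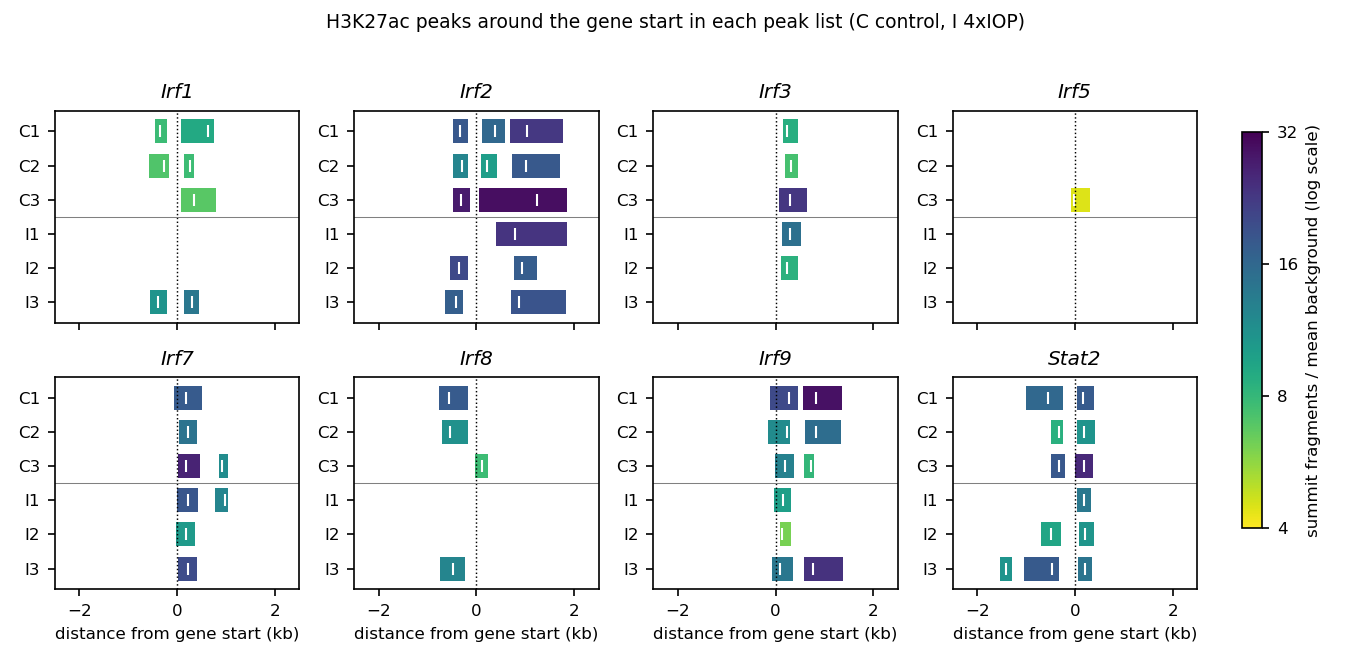
H3K27ac peaks within 2.5 kb of the gene start (dotted line, distance in kb along the direction of transcription) for the 8 genes, with 1 row per list, controls C1 to C3 above 4xIOP I1 to I3. Bars are peaks coloured by summit fragments over the mean background of the list (log scale) and white ticks are summits. Irf1 and Irf8 have bars in the controls and I3, Irf9 has its downstream bar in the same 4 lists, and Irf2, Irf7 and Stat2 have bars in all 6 rows.

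A promoter was counted as marked where a peak overlapped it. The promoters of Irf2, Irf7, Irf9 and Stat2 were marked in all 6 lists, as were 39.5% of protein-coding genes. Irf1 and Irf8 were marked in the 3 control lists and 4xIOP replicate 3, Irf3 in all lists but 4xIOP replicate 3, and Irf5 in control replicate 3. In number, 7, 7 and 8 of the 8 members were marked in the controls, in order of replicate, and 5, 5 and 6 in 4xIOP. Every control list held more marked members than any 4xIOP list, and the means were 7.33 ± 0.577 and 5.33 ± 0.577 (SD, n = 3), with no test. This separation holds for the groups as labelled. The 2 lists named as labelled held 8 and 6. By the lists' own names, those named as control held 5, 5 and 8 and those named as pressure 6, 7 and 7, which overlap. All protein-coding genes were marked in 48.6%, 46.2% and 56.9% of cases in the controls and in 47.4%, 45.6% and 44.6% in 4xIOP. No member was marked in all lists of one group and in no list of the other, a pattern found for 0.626% of marked genes with the control lists and for 0% with the 4xIOP lists.

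Levels are given as fragments at the summit of the strongest promoter peak, and as that number over the mean background of its list (enrichment). A list without a peak had no signal there that passed the caller's threshold, and is not shown to lack the mark. The lowest peak anywhere in a list had an enrichment of 3.55 to 4.48 depending on the list. Peaks were called against the local background, so the threshold at a given promoter can be higher than this. Irf2 had the highest enrichment of the 8 genes in 4 of the 6 lists, and Irf9 in control replicate 1 and 4xIOP replicate 3. Averaged over the marked control lists, the order was Irf2 (23.5 ± 5.79), Irf7 (19.5 ± 6.11), Irf9 (19.2 ± 8.76), Stat2 (17.9 ± 7.08), Irf3 (13.0 ± 8.72), Irf8 (12.2 ± 5.12), Irf1 (7.90 ± 1.13; SD, n = 3 for each) and Irf5 (4.46, in 1 list). Apart from Irf1 and Irf5, neighbours in that order differed by less than the SD of the higher one.

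With the groups as labelled, the mean level was lower in 4xIOP at most promoters, members or not. Over all 12623 genes marked in any list, the log2 level in 4xIOP minus control had a median of -0.27, and it was below 0 in 89.9% of genes. The 8 members had a median of -0.29 with 7 below 0, which is close to this shift. The shift rests on control replicate 3. The median log2 level of these genes was 3.73, 3.15 and 4.60 in the control lists and 3.80, 3.61 and 3.23 in 4xIOP. Without control replicate 3 the median difference was 0.10, with 34.6% of genes below 0, and without 4xIOP replicate 3 it was -0.11. In the 2 lists named as labelled it was -1.30. Member differences are therefore also given with the median promoter of each list set to the same value (centred). Under the same labels, the level of every 4xIOP list was below that of every control list for 1.64% of all marked genes and above for 0.285%, and for 0 members in either direction.

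**Figure D2:**
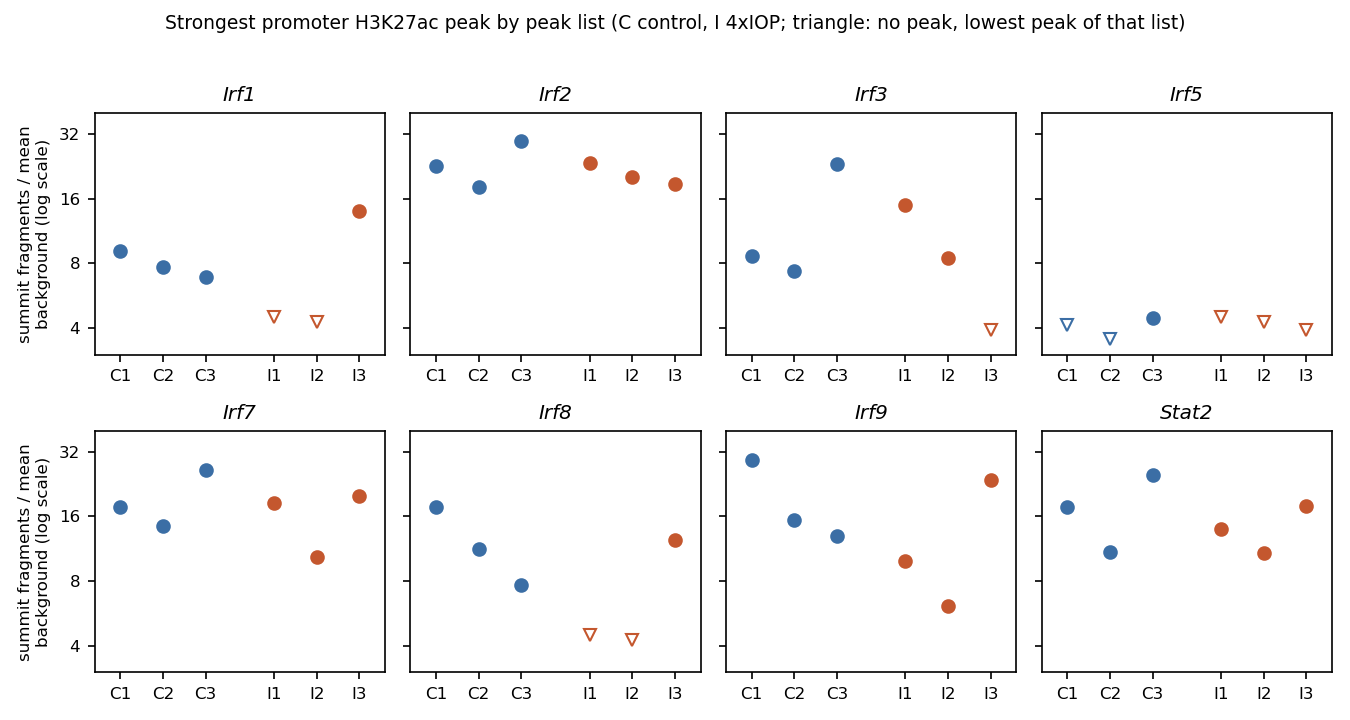
Enrichment (summit fragments over the mean background, log axis) of the strongest promoter peak of each gene in the 3 control (C1 to C3, blue) and 3 4xIOP lists (I1 to I3, orange). Open triangles mark lists without a promoter peak, drawn at the lowest peak of that list. Points of the 2 groups overlap for all 8 genes, and I3 is the highest of the 4xIOP points for Irf1, Irf7, Irf8, Irf9 and Stat2.

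Among the sensors' effectors, Irf3 (ENSMUSG00000003184.15, chromosome 7, 44997648 to 45002848, plus strand) encodes the factor that is present before stimulation and starts the first wave of interferon. Its promoter peak, 75 to 646 bp after the gene start, held 19, 25 and 57 fragments in the 3 control lists. Replicates 1 and 2 of 4xIOP had 30 and 18. No peak was called in 4xIOP replicate 3. Over the mean backgrounds this is an enrichment of 8.67, 7.40 and 23.1 in control and of 14.9 and 8.48 in 4xIOP, so the highest list was control replicate 3 and the groups overlapped. The centred difference was -0.33 on the log2 scale (exact permutation p = 0.5, two-sided), with the missing value set to the lowest peak of that list. The peak lies in the shared promoter of Irf3 and Bcl2l12, which encodes a Bcl-2-like protein, so the signal cannot be assigned to either gene. The pattern of all lists but 4xIOP replicate 3 was shared by 403 genes, 3.19% of those marked, and by no other gene of the interferon lists.

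The same window of Irf3 holds promoters of other coding genes. The region at Prmt1, an arginine methyltransferase gene, held 44, 52 and 78 fragments in control and 46, 36 and 33 in 4xIOP. That at Rras and Scaf1 held 39, 36 and 79 against 37, 39 and 25. Both were called in every list, and neither passed the test across shared regions (limma, adjusted p = 1 for both).

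Irf7 (ENSMUSG00000025498.15, chromosome 7, 141262706 to 141266481, minus strand) encodes the amplifier of the type I response, itself a classical interferon target. Its promoter peak spanned the start and held 39, 49 and 65 fragments in control and 37, 22 and 51 in 4xIOP. It was called in every list, with only 4xIOP replicate 2 below the others. As a percentile among the regions called in all 6 lists, this is 57.2, 71.9 and 42.4 in control and 56.9, 14.6 and 92.8 in 4xIOP, so that the highest and the lowest rank are both in 4xIOP. The centred difference was -0.086 (exact permutation p = 0.9). A second peak, 779 to 1052 bp after the start, was called in control replicate 3 (29 fragments) and 4xIOP replicate 1 (25 fragments).

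Irf5 (ENSMUSG00000029771.12, chromosome 6, 29526625 to 29541871, plus strand) acts downstream of Toll-like receptors, mainly in myeloid cells. Its promoter had a peak in control replicate 3 alone, with 11 fragments and an enrichment of 4.46, just above the lowest peak of that list (3.65). That list is the longest of the 6, and 1147 genes (9.09% of those marked) share the pattern, Ifit3 and Tlr3 of the interferon lists among them. A region inside the gene, 13382 to 14178 bp after the start, was called more often than the promoter. It held 23, 26 and 30 fragments in control, and 21 and 26 in the first pair of 4xIOP lists, with no call in replicate 3. Where called, its values overlapped between groups.

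Of the partners of the signalling complex, Stat2 (ENSMUSG00000040033.16, chromosome 10, 128270559 to 128292849, plus strand) encodes the subunit with the activation domain. The region just after its start, 9 to 410 bp, was called in all lists with 39, 37 and 62 fragments in control and 28, 23 and 37 in 4xIOP. The ranges of raw fragments touched at 37. Over the mean backgrounds the enrichments were 17.8, 10.9 and 25.1 in control and 13.9, 10.8 and 14.4 in 4xIOP, so the groups overlapped. Both this region and the next one lie also within the promoter window of the coding gene Apof, so their signal cannot be assigned to Stat2 alone. A second region, at -1050 to -208 bp and with the ISRE core printed above, held 35, 29 and 45 fragments in control. In 4xIOP it held 20 and 46 in replicates 2 and 3, the latter in a peak that ended before the ISRE core, with no call in replicate 1. The strongest promoter peak, which gives the level, was this one in 4xIOP replicate 3 and the downstream one in the other lists. The centred difference was -0.091 (exact permutation p = 0.9). Further out, at 128302427 to 128303155, the promoter of Pan2, a deadenylase subunit gene, held 49, 51 and 81 fragments in control and 38, 39 and 24 in 4xIOP. Over the mean backgrounds the groups overlapped there, and in the test on ranks the score difference was -0.56 ± 0.319 (SE) with an adjusted p of 1 (limma).

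Irf9 (ENSMUSG00000002325.15, chromosome 14, 55603571 to 55610030, plus strand) encodes the DNA-contacting subunit of ISGF3. The peak at its start, 155 bp before to 454 bp after, was called in every list with 44, 40 and 32 fragments in control and 20, 13 and 36 in 4xIOP. Replicates 1 and 2 of 4xIOP were the lowest, while replicate 3 lay among the controls. A second peak, 567 to 1373 bp after the start over the first intron, was called in the 3 controls and 4xIOP replicate 3 with 64, 52, 20 and 61 fragments. Of all 39942 regions, 0.726% were called in exactly these 4 lists. Control replicate 3, which has the most peaks of all lists, was the weakest of them here. RefSeq has a second Irf9 promoter window, 55604329 to 55604628, inside this second region, so the region is not intronic alone.

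In the surroundings of Irf9, control replicates 1 and 2 and 4xIOP replicate 3 were again the highest lists. The caller's local background of its strongest peak, counted over an interval that holds the peak itself, corresponds to 430, 483 and 209 fragments per 10 kb in control and to 120, 121 and 450 in 4xIOP. Over the mean of each list, this is 4.32-, 2.79- and 1.58-fold in control and 1.37-, 1.32- and 3.33-fold in 4xIOP. The promoter level of Irf9 ranked at percentiles 90.9, 76.4 and 3.35 of the regions called in all lists in control, and 6.97, 0.418 and 97.3 in 4xIOP. So both groups held a list near the top and a list near the bottom. The centred difference of -0.48 had an exact permutation p of 0.8. Both this level and the local background above came from the second peak in control replicates 1 and 2 and 4xIOP replicate 3. In the other lists they came from the start peak. For the start peak alone, the percentiles were 67.7, 54.2 and 3.35 in control and 6.97, 0.418 and 71.7 in 4xIOP.

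At the neighbouring promoters within 20 kb of Irf9, control replicate 3 was the highest list. At Psme2, an interferon-inducible proteasome activator gene, and Rnf31, a ubiquitin ligase gene, the region called in all lists held 37, 35 and 76 fragments in control and 30, 24 and 32 in 4xIOP. At Emc9, it held 25, 23 and 48 against 24, 20 and 22. Over the mean backgrounds the groups overlapped at each of these promoters. The score differences between groups were -0.34 ± 0.331 and 0.053 ± 0.292 (SE), against -0.76 ± 0.731 for the peak at the Irf9 start, with an adjusted p of 1 for each (limma). The first intron under the second Irf9 peak is printed because 4 lists had a peak over all or part of it and the other 2 had none. In control replicate 3 the peak ended at 55604363 and covered only part of the intron. The intron held no ISRE core, GAS or NF-kB match, and capitals are therefore absent.
Irf9 first intron, chr14:55604244-55604467: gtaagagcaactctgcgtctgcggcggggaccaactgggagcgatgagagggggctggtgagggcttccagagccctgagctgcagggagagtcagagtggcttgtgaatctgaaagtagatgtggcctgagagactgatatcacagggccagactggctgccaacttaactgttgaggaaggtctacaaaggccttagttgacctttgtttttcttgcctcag

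Irf1 (ENSMUSG00000018899.16, chromosome 11, 53770014 to 53778374, plus strand) encodes an activator induced by interferon gamma. Its strongest promoter peak, 72 to 788 bp after the start, held 20, 26 and 17 fragments in control and 36 in 4xIOP replicate 3. The upstream peak, at -569 to -172 bp, held 17 and 24 in control replicates 1 and 2 and 28 in 4xIOP replicate 3. A further region, at -6695 to -6028 bp, was called in the same 4 lists as the promoter with 18, 19, 16 and 31 fragments. The strongest peak lies also in the promoter window of the coding gene Gm17334. At all 3 sites the list with the most fragments was 4xIOP replicate 3, while 4xIOP replicates 1 and 2 had no peak at any of them. The centred level difference was -0.093 with the missing values at the lowest peak of their lists (exact permutation p = 0.9).

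Irf2 (ENSMUSG00000031627.9, chromosome 8, 46739732 to 46847458, plus strand) encodes a factor that competes with IRF1 for the same elements. Its promoter peak, 62 to 1854 bp after the start, held 50, 61 and 73 fragments in control and 47, 37 and 48 in 4xIOP. Over the mean backgrounds the groups overlapped there, at 22.8, 18.0 and 29.6 in control and 23.4, 17.4 and 18.7 in 4xIOP. An upstream region, at -635 to -124 bp, held 40, 42 and 68 in control. Replicates 2 and 3 of 4xIOP had 43 and 44 there. The ISRE core and GAS printed above lie in this region, but the peak of 4xIOP replicate 3 ended before them. For 4xIOP replicate 1 no upstream peak was called. The level of Irf2 was taken from the upstream peak in 4xIOP replicate 2 and from the downstream peak in the other lists. Irf2 had the smallest centred difference of the 8 genes, 0.041 (exact permutation p = 1), although its uncentred difference was -0.15. A pair of weaker regions, at -19265 to -18804 and -17739 to -17398 bp, was called in 3 and 2 lists.

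Irf8 (ENSMUSG00000041515.10, chromosome 8, 120736358 to 120756694, plus strand) encodes a lineage factor of myeloid cells, microglia included. Its peak at -768 to -170 bp held 39 and 38 fragments in control replicates 1 and 2 and 32 in 4xIOP replicate 3. Control replicate 3 had no peak there but one over the start, 23 bp before to 239 bp after, with 19 fragments. In 4xIOP replicates 1 and 2 no peak was called in the whole window. The centred difference was -0.71 (exact permutation p = 0.3), the largest of the 8 members with the groups as labelled, and these groups overlapped through 4xIOP replicate 3. By the lists' own names the sign is the opposite.

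The upstream interval of Irf8 is printed for its central 300 bases, with an NF-kB match (120735816 to 120735825) in capitals. This match lay under a peak in control replicates 1 and 2 and 4xIOP replicate 3.
Irf8 upstream, chr8:120735641-120735940: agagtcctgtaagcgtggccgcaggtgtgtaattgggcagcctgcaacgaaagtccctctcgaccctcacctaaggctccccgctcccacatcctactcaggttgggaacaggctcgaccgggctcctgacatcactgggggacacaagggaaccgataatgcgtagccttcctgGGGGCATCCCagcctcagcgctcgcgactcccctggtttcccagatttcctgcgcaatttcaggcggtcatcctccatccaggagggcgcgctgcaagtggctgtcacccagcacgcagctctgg

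The upstream regions of Irf1 and Irf8 were called in exactly 3 lists, control replicates 1 and 2 and 4xIOP replicate 3. These are the lists whose own deposited name is that of the pressure group. This combination was found for 89 of all 39942 regions (0.223%). The combination with control replicate 3 added, which holds the promoters of Irf1 and Irf8 as a whole, was found for 78 genes (0.618% of those marked). Of the interferon lists, Gbp7, Psmb9, Socs3 and Tap1 shared it. Socs3, a feedback inhibitor of cytokine signalling, held 48, 49 and 21 fragments in control and 50 in 4xIOP replicate 3. Tap1 and Psmb9, which encode a peptide transporter and an immunoproteasome subunit, share a promoter whose peak held 20, 30 and 17 in control and 45 in 4xIOP replicate 3. The share of regions and genes with this combination is a description of the lists and was not tested.

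Since Irf8 is a myeloid gene, the 16 markers of microglia and macrophages were read in the same lists. In every list 1 of the 16 was marked, and 15 were unmarked in all 6, including Cx3cr1, Csf1r, P2ry12, Tmem119 and Spi1. These 15 had no promoter peak in any list, whether or not Irf8 had one.

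For the test across genes, the summit fragments of each promoter were ranked within a list and turned into normal scores, with unmarked promoters tied at the lowest rank. Of the 12623 genes marked in any list, 0 were higher (0%) and 6 lower (0.0475%) in 4xIOP at an adjusted p of 0.05 (limma), and no member was among the 6. An unadjusted p under 0.05 was reached by 452 genes (3.58%). The score differences of the members were -0.57 ± 0.615 for Irf8, -0.34 ± 0.823 for Irf9, -0.20 ± 0.325 for Irf3, 0.066 ± 0.399 for Stat2, 0.11 ± 0.443 for Irf7, 0.17 ± 0.569 for Irf1 and 0.25 ± 0.273 for Irf2 (SE). Irf5 was unmarked in 5 lists, so its score in 4xIOP is the tied rank of unmarked promoters and its difference of 0.34 ± 0.246 gives no direction. The tied score was on average -1.74 in control and -1.27 in 4xIOP, lowest in control replicate 3 (-2.52), which raises the difference of genes unmarked in 4xIOP lists. This touches Irf1 and Irf8, unmarked in 4xIOP replicates 1 and 2, and Irf3, unmarked in replicate 3, so the score of Irf1 gives no direction. Their adjusted p lay between 0.964 and 0.995. Among the 10529 regions called in all 6 lists, 0 were higher (0%) and 0 lower (0%), while 343 (3.26%) had an unadjusted p under 0.05. The 10 such regions in the members' windows had an adjusted p of 1.

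The uncentred level differences between the groups were -0.90 for Irf8, -0.67 for Irf9, -0.53 for Irf3, -0.29 for Irf1, -0.28 for Stat2, -0.28 for Irf7 and -0.15 for Irf2 on the log2 scale. That of Irf5, 0.063, rests on the lowest peak of 5 lists and gives no direction either. All had an exact permutation p between 0.3 and 0.7, where 0.1 is the smallest that 3 lists against 3 allow. For Irf2, Irf7 and Stat2 the sign of the score difference was opposite to that of the level, so no direction is stated for them. The sign also differed for Irf1, whose score gives no direction, and none is stated for it either. With a list left out, the difference for Irf8 lay between -1.41 (4xIOP replicate 3 omitted) and -0.59 (control replicate 1 omitted). For Irf9 it was -1.20 without 4xIOP replicate 3 and -0.23 without 4xIOP replicate 2, the extremes. For Irf3 it was -0.019 without either control replicate 3 or 4xIOP replicate 3, and -0.99 without 4xIOP replicate 1. The extremes for Stat2 were -0.60, with control replicate 2 omitted, and -0.0021, with control replicate 3 omitted. In the 2 lists named as labelled it was 0.70 for Irf8, 0.88 for Irf9 and 1.03 for Irf1, the opposite sign in each case. It kept its sign there for Irf3 (-2.57, with the 4xIOP list at its lowest peak), Irf2 (-0.66), Stat2 (-0.49) and Irf7 (-0.41).

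Grouping the lists by their own deposited names was added after the data were seen, as a description with no test. The level in pressure-named minus control-named lists was then 1.36 for Irf8, 1.25 for Irf9 and 0.97 for Irf1. For these 3 genes every pressure-named list was above every control-named one, as for 31 of the 12623 marked genes (0.246%). For Irf8 and Irf1 a pair of the control-named lists was at its lowest peak. The reverse order held for 33.5% of marked genes, beside a median of -0.58, and among the members for Irf5, which has a peak in 1 list. The values were -1.18 for Irf3, -0.29 for Irf2, -0.040 for Stat2 and 0.0098 for Irf7. The sign for Irf8, Irf9 and Irf1 thus depends on whether the labels or the lists' own names are right, which the lists do not say.

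The sign also differed between lists with a longer and a shorter minimum peak length. Control replicate 1 and 4xIOP replicates 1 and 2 had a shortest peak above 200 bp, the other 3 lists below. Within the longer class, where both 4xIOP lists were at their lowest peak for Irf1 and Irf8, the difference was -2.03 for Irf8, -1.90 for Irf9 and -1.07 for Irf1, beside a median of 0.020 over all marked genes. Within the shorter class it was 0.42, 0.75 and 0.95, beside a median of -0.62. For Irf3 the values were 0.38 and -1.75, for Irf2 -0.068 and -0.30, for Irf7 -0.37 and 0.025, and for Stat2 -0.53 and 0.11. Of these 7 genes, Irf2 was the one with the same sign in both classes. With this class as a covariate in the fit across genes, the score differences were 0.48 for Irf1, 0.36 for Irf7, 0.26 for Stat2, -0.13 for Irf9, -0.43 for Irf8, -0.30 for Irf3 and 0.29 for Irf2, with adjusted p from 0.938 to 0.981 (limma).

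**Figure D3:**
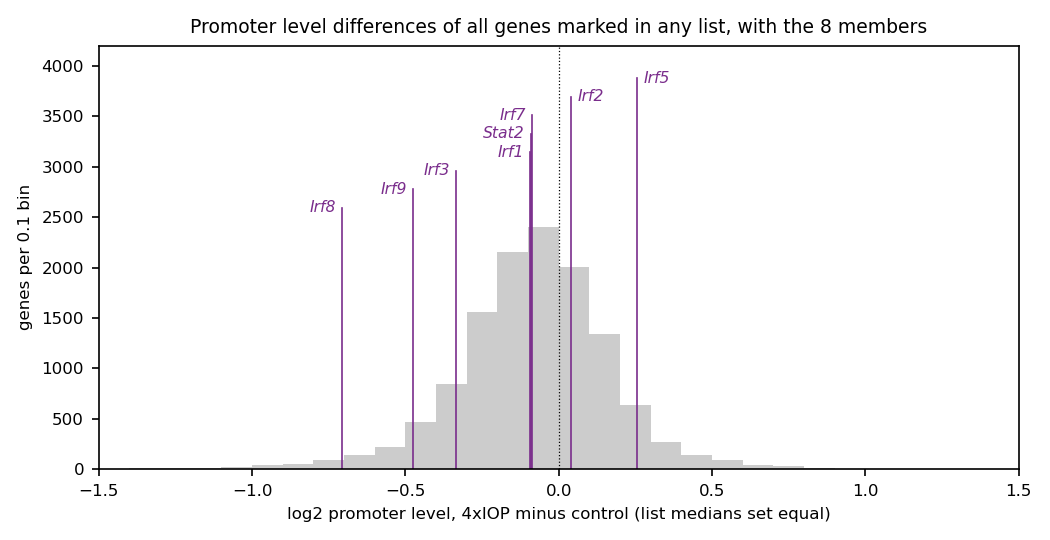
Number of genes per 0.1 bin (grey bars) of the log2 promoter level in 4xIOP minus control after the median marked promoter of each list was set equal, over 12623 genes marked in any list, with unmarked promoters at the lowest peak of their list. Purple lines mark the 8 members, from Irf8 at -0.71 to Irf5 at 0.26, the latter unmarked in 5 lists and so without a direction; Irf1, Stat2 and Irf7 stand together near the centre of the distribution.

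The rest of the pathway was read from lists of genes by role. None of the 7 ligand genes, such as Ifnb1 and Ifng, had a marked promoter in any list. Of 22 genes of nucleic acid sensing, 10 were marked in all 6 lists, among them the RNA sensor gene Ddx58, its adaptor gene Mavs and the kinase gene Tbk1. Of those, 9 were unmarked in every list, including Tmem173 (STING), Tlr7 and Tlr9. The number marked was 11, 12 and 13 in control and 11, 10 and 12 in 4xIOP.

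Receptors and signal transducers had a larger share marked in all lists than the sensing genes (45.5%), with no test of the difference. Of the 11 genes, 8 had a marked promoter in every list (72.7%). Among all protein-coding genes this share was 39.5%. The 8 included Ifnar1, Ifnar2, Ifngr1, Jak1 and Jak2. The counts were 8, 9 and 11 in control and 9, 9 and 10 in 4xIOP. Of 12 inhibitors, 10 were marked in all lists (83.3%), among them Socs1, Usp18 and Adar. Of the 10 IRF partners, Irf2bp1 and Irf2bp2 were marked in all lists (20%) and 5 (Irf4, Spi1, Batf, Batf3 and Ciita) in none. Nlrc5, the transactivator of class I antigen presentation genes, had 17, 18 and 27 fragments in the 3 lists that called the upstream regions of Irf1 and Irf8, and no peak elsewhere. It is 1 of 7 genes (0.0555% of those marked) with this combination and was singled out after its values were seen.

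Interferon targets were marked unevenly within the 4xIOP group. Of 58 target genes, 26, 25 and 26 were marked in control and 17, 18 and 30 in 4xIOP. As shares this is 44.3% ± 0.995 in control and 37.4% ± 12.5 in 4xIOP (SD, n = 3). The lowest and the highest count were both in 4xIOP, and replicate 3 of that group exceeded every control. By the lists' own names, those named as control held 17, 18 and 26 and those named as pressure 25, 26 and 30. In all 6 lists 13 targets were marked (22.4%, against the 39.5% of all protein-coding genes), among them the antigen presentation genes Psme1 and Tap2 and the GTPase genes Irgm1 and Igtp. In no list were 25 marked (43.1%, against 42.4% of all), including Ifit2, Mx1, Oas2, Rsad2 and Cxcl10.

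Across these lists, the test called 0 genes in either direction, with 33 targets, 13 sensing genes, 11 receptors and transducers, 12 inhibitors and 5 partners marked in any list and so tested (limma, smallest adjusted p = 0.964 in each list). The score difference was above 0 for 27 of the 33 targets, with a median of 0.23, beside a median of 0.024 and 6843 of 12623 over all genes tested. The medians were 0.18 for sensing, 0.11 for receptors and transducers, 0.19 for inhibitors and 0.024 for partners. No gene of the interferon lists was marked in all lists of one group and in none of the other.

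**Figure D4:**
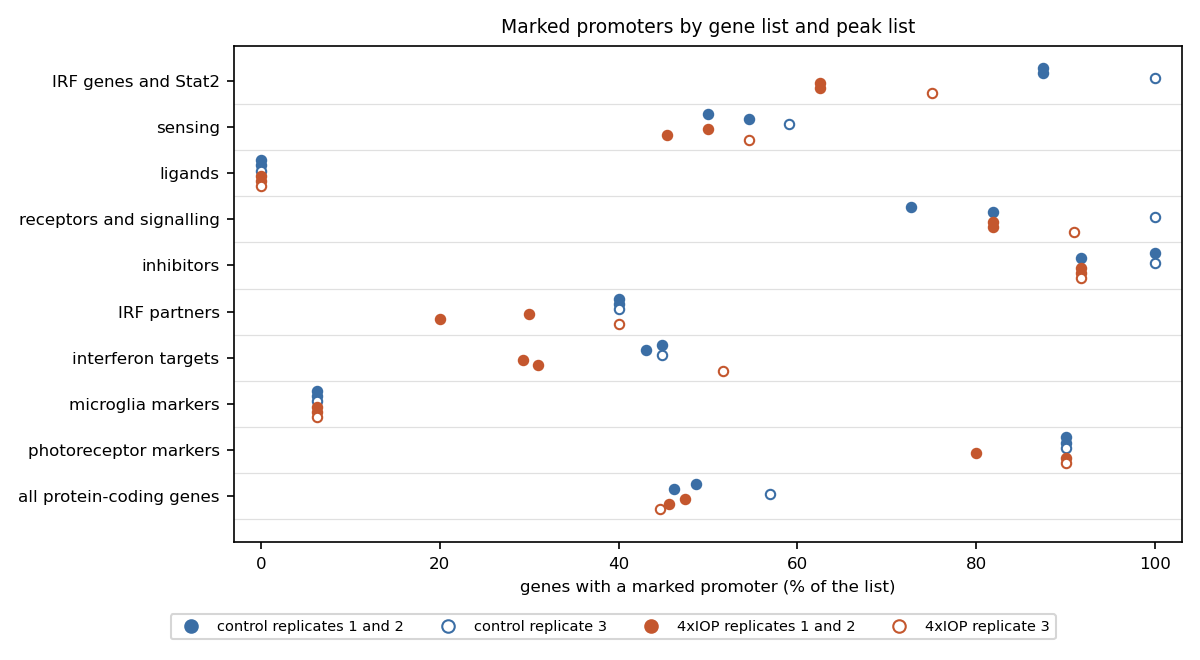
Share of the genes of each list with a marked promoter (%), 1 point per peak list, control in blue and 4xIOP in orange, with replicate 3 of each group as open circles. The 8 members separate the groups by count as labelled but not by the lists' own names, the interferon targets spread widest in 4xIOP with replicate 3 at the top, and the microglia markers stand at the same share in all lists.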

How the data were processed

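H3K27ac ChIP-seq was analysed from 6 deposited peak lists, 3 control and 3 4xIOP, 1 per sample and in narrowPeak layout. Per the labels' processing notes, mm10, STAR 2.7.8a, MACS2, HOMER, edgeR and bedtools 2.29.2 were used by the authors, with no role given for each. The peak caller's settings are not given in the sources used here. The authors deposited for each peak a fold ratio of pile-up to local background, its −log10 p-value and −log10 q-value, and an integer score, which was not used. The lowest −log10 q was 1.31.

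Summit fragments and local background were solved from fold and p under a Poisson model, which returned p within 0.001 for 100% of peaks. The lowest background of a list was its mean. Local backgrounds were whole fragments per 10 kb within 0.05 for 100% of those tested. Precision was read from the spread between lists, since total read counts are unknown.

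Peaks were merged into regions and assigned to promoters (2.5 kb either side of a TSS, GENCODE, 1 bp overlap). Of 21911 protein-coding genes, those marked in any list were tested on within-list normal scores with limma 3.58.1 in R 4.3.3, with Benjamini-Hochberg adjustment. For single levels, an exact permutation test (two-sided) was run in Python 3.11.15. The fitting was tested on simulated data. The labels do not say whether lists with the same replicate number come from the same animal, so the main tests were unpaired.

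All 8 members are named. Other genes are named where they have a promoter in a member's window, share a member's pattern of marked lists, or illustrate a role list. The members and lists were chosen with earlier results of these data known, and 2 targets, Mx2 and Cxcl11, were not found in the annotation.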

Additional observations from a re-analysis of the deposited data

How the results depend on the processing

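The alternatives were fixed with earlier results of these data known. Shared regions gave 0 calls under all 14 alternatives. The 6 genes called across promoters became 0 with deposited fold ranked, 13 on the centred log2 scale, 2 with the same number of top peaks per list, 1 with promoters of 1 kb either side, 2 with the class of shortest peak (over 200 bp or not) as a covariate, and 0 to 6 with each list left out, 0 without control replicate 2 and 3 without control replicate 1, 4xIOP replicate 1 or 4xIOP replicate 3. No member was called in any of them. The replicate block gave 0 calls. Same-numbered lists correlated at -0.070, -0.039 and -0.096 in their deviations from the group means, and no list correlated best with its own number. Deviations within a group of 3 sum to 0, so these correlations cannot show whether same-numbered lists come from the same animal. With the block, exact sign-flip p for the members lay at 0.25 or above, the smallest possible.

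Promoters exclusive to control (79) numbered 29, and those exclusive to 4xIOP (0) numbered 10, with the same number of top peaks, and the latter 1 where a summit had to lie in the promoter. Leaving out each list gave 82 to 277 (the highest without control replicate 2) and 0 to 36 (the highest without control replicate 3), fewer lists being required. The difference in marked members (-2) was -1.33 with equal numbers of peaks -2.33 to -1.67 with a list left out, and 0.67 with the lists grouped by their own names, a setting added after the data were seen.

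Signs of member level differences turned in 18 of 120 alternative values. These were Irf5 with deposited fold (-0.33), Irf2 when centred (0.041), Irf1 at a −log10 q from 5 upwards (0.31), Irf1 with equal numbers of peaks (0.17), Irf5 in the same setting (-0.24, with a peak in 0 lists and so a difference between list thresholds only), and Irf1, Irf5, Irf8 and Irf9 in the 2 lists named as labelled (1.03, -0.19, 0.70 and 0.88), and with lists grouped by their own names Irf1, Irf5, Irf7, Irf8 and Irf9 (0.97, -0.19, 0.0098, 1.36 and 1.25). With a list left out, the differences ranged from -0.85 to 0.014 for Irf1, -0.33 to 0.028 for Irf2, -0.027 to 0.14 for Irf5 and -0.47 to 0.014 for Irf7. Signs of score differences turned in 19 of 109. With deposited fold they were -0.33 for Irf1, -0.049 for Irf7 and -0.019 for Stat2, and when centred -0.093, -0.086 and -0.091. For Irf7, equal numbers of peaks gave -0.21 and the stricter q gave -0.16. With a list left out, they ranged from -0.55 to 0.55 for Irf1, -0.019 to 0.45 for Irf2, -0.53 to 0.13 for Irf3, -0.41 to 0.57 for Irf7, -1.30 to -0.22 for Irf8, -1.27 to 0.19 for Irf9 and -0.45 to 0.37 for Stat2. Over all marked genes, the median level difference (-0.27) ranged from -0.58 to 0.10 with a list left out, alternatives chosen after seeing the data. The causes were not tested. No member had an adjusted p under 0.05 (limma) in any alternative. The unadjusted p of Irf8 was under 0.05 without control replicate 3 (0.0469) and without 4xIOP replicate 3 (0.0438, limma). The same held for 420 of 11476 and 775 of 12594 genes in these settings. In both, 4xIOP replicates 1 and 2 had no Irf8 peak and stood at the tied lowest rank.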

Other observations

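Of the targets, Ifit1 and Bst2 were marked in 4xIOP replicate 3 alone. Oasl2 and Rtp4, an antiviral and a receptor-transporting protein gene, were marked in control replicate 2 and 4xIOP replicate 3. Isg15, which encodes a ubiquitin-like modifier, was marked in control replicate 3 and in 4xIOP replicates 2 and 3. These genes were picked with their values in view, and no difference was tested for them beyond the fit over all genes.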
